A study of Homo sapiens with 6 samples.

Results

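The genes described here are 10 parts of the microRNA machinery: DROSHA, DGCR8 and XPO5, which act in and out of the nucleus, DICER1 and TARBP2 in the cytoplasm, the Argonautes AGO1, AGO2, AGO3 and AGO4, and the scaffold gene TNRC6A. They were chosen by name from the symbol column, and all 10 were found among the 17452 genes listed for each library. The samples are 6 RNA libraries of MDA-MB-231, an established line of triple-negative breast cancer cells grown in L-15 medium. In the siControl group (3 libraries) cells received a control siRNA, and in the siPHF20L1 group (3 libraries) an siRNA against PHF20L1, a reader of methylated lysines. The study asked which transcripts change when PHF20L1 is reduced. Transfection with an siRNA is common to both groups, so no library shows untransfected cells. The labels name Lipofectamine 2000 or RNAiMAX as the reagent, give neither siRNA sequence nor harvest time, and do not say whether libraries of a group are separate cultures. The p-values therefore measure the spread between these libraries, which may be technical.

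MicroRNAs are made in steps. In the nucleus the Microprocessor, formed by the RNase DROSHA and its RNA-binding partner DGCR8, cuts a hairpin out of a long primary transcript, and exportin-5 (XPO5) carries the hairpin to the cytoplasm. There DICER1, with TARBP2, removes the loop, and 1 strand of the duplex is loaded into an Argonaute, which pairs with target mRNAs mostly through the seed at the 5′ end of the microRNA. TNRC6A, a GW182 protein, binds Argonaute and recruits deadenylases. AGO2 is known as the member of the family that slices fully paired targets and is thus the main effector of siRNAs.

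Values are FPKM, which divide a gene's fragments by its length and by the library's total. Levels of different genes are set side by side on that basis. The annotation behind the lengths is not given, so such comparisons between genes depend on lengths that could not be checked. PHF20L1 was at 12.48 to 15.75 FPKM in siControl and at 2.31 to 2.74 FPKM in siPHF20L1 libraries, so every library followed its label. Depth was estimated at 17100000 to 17500000 fragments per library from the steps of low values, which puts about 250 fragments behind the lowest AGO4 value and about 5490 behind the highest AGO2 value. The libraries numbered 1 stood somewhat apart: they were the highest of their group for 8 of the 10 genes in siControl and 6 of 10 in siPHF20L1, against 46.8% and 48.3% of all genes tested. Differences within the libraries numbered 1 and within those numbered 2 and 3 are therefore given too for each of the 10 genes. Of the markers of the line, VIM (1624 and 1015 FPKM in siControl and siPHF20L1), CD44 (141 and 140 FPKM) and EGFR (68.9 and 66.7 FPKM) were abundant, ESR1 was listed at 0 and PGR did not exceed 0.05 FPKM. The epithelial marker EPCAM went from 2.20 to 4.31 FPKM and CDH1 was at 0.31 to 0.45 FPKM, while the leukocyte marker PTPRC was at 1.08 and 1.13 FPKM. The part of these in the results below was not tested.

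DICER1 fell about 4-fold and DROSHA doubled its level, while 6 of the 10 genes were lower, 2 higher and 2 did not pass the test (limma on log2(FPKM + 1), adjusted p under 0.05 over 11560 genes). Among all genes tested, 24.7% were lower and 34% higher by the same rule. The groups did not overlap for 8 of the 10 genes, against 63.7% of all genes. The median log2 difference of the 10 genes was -0.27, and that of all genes 0.05. Size sets DICER1 apart more than the count does: its log2 difference was beyond 1.5 in either direction, which held for 1.16% of the genes tested. In bulk RNA, a change in fewer cells and a smaller change in every cell cannot be told apart.

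**Figure D1:**
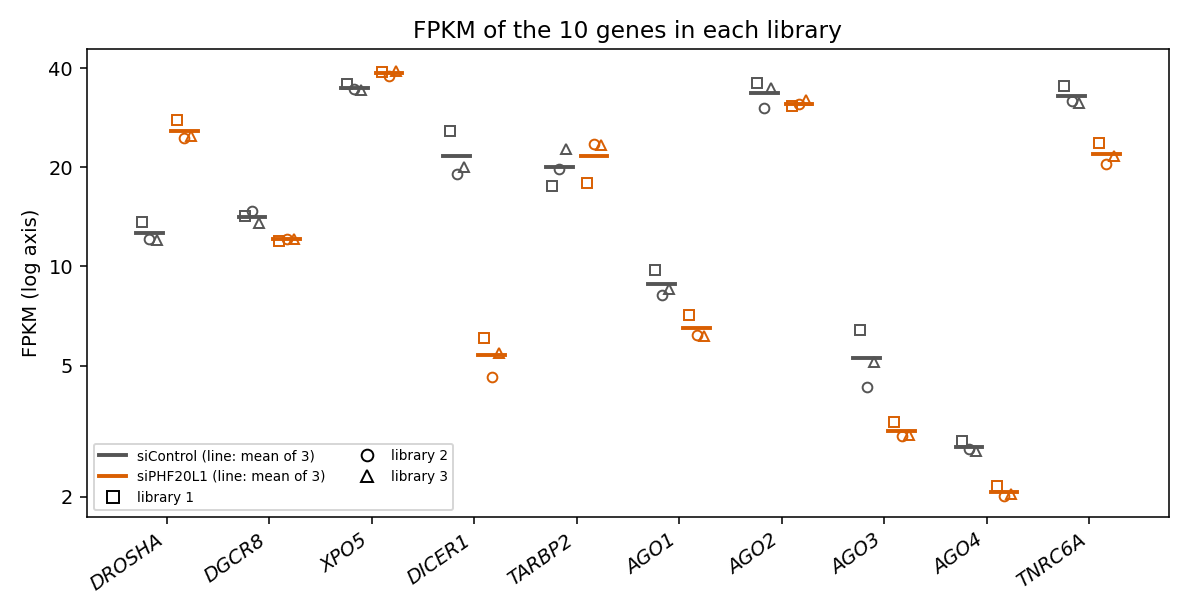
FPKM (log axis) of the 10 genes in each of the 6 libraries, ordered by step of the pathway; symbols give the library number, and lines the group means (n = 3). DICER1 sits between 19.12 and 25.78 in siControl and between 4.63 and 6.06 in siPHF20L1 libraries, while AGO2 and TARBP2 overlap between the groups.

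DROSHA (Entrez gene 29102, chromosome 5), the RNase of the Microprocessor, was at 13.67, 12.15 and 12.05 FPKM in the siControl libraries and at 27.86, 24.64 and 24.92 FPKM in the siPHF20L1 libraries. Every siPHF20L1 library was thus far above every siControl library. The mean rose from 12.6 ± 0.908 (SD, n = 3) to 25.8 ± 1.78 FPKM (SD, n = 3), a 2.04-fold rise (log2 difference 0.98, SE 0.08, limma, adjusted p = 1.28e-05). The difference was 0.98 both within the libraries numbered 1 and within those numbered 2 and 3, and 3.58% of the genes tested had a larger rise.

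DGCR8 (Entrez gene 54487, chromosome 22), which positions DROSHA on the hairpin, moved the other way and by little. Its values were 14.23, 14.70 and 13.54 FPKM in siControl and 11.98, 12.15 and 12.11 FPKM in siPHF20L1 libraries, with no overlap. The mean went from 14.2 ± 0.583 to 12.1 ± 0.0889 FPKM (SD, n = 3), a fall of 0.21 on the log2 scale (SE 0.06, limma, adjusted p = 0.0150). This call rests on single libraries: the adjusted p of limma was 0.0681 without siControl replicate 2 and 0.0517 without siPHF20L1 replicate 3, and between 0.00131 and 0.109 over the 16 alternatives. The log2 difference was -0.23 within the libraries numbered 1 and -0.20 within those numbered 2 and 3. The ratio of DROSHA to DGCR8 lay between 0.826 and 0.961 in the siControl libraries and between 2.03 and 2.33 in the siPHF20L1 libraries. The FPKM values of these partners were thus near equal in control cells and apart after the knockdown. With 3 libraries against 3, an exact two-sided permutation test of any such ratio cannot give a p below 0.10, so the ratios are descriptions.

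The DGCR8 transcript is itself known as a substrate of the Microprocessor, which cuts hairpins in its 5′ part. The microRNAs of these hairpins are shown because they tie the 2 genes together. Their RefSeq mature sequences (GRCh38.p14, plus strand, exonic to DGCR8) have the seed, bases 2 to 8, in capitals and share no seed. MicroRNAs themselves were not measured here.
hsa-miR-3618 (chr22:20085797-20085818): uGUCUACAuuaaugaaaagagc
hsa-miR-1306-5p (chr22:20086072-20086093): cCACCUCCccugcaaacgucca
hsa-miR-1306-3p (chr22:20086112-20086129): aCGUUGGCucugguggug

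XPO5 (Entrez gene 57510, chromosome 6), the export receptor of precursor hairpins, had the highest mean of the 10 genes in both groups. It was at 35.92, 34.54 and 34.27 FPKM in siControl and at 38.93, 37.78 and 39.32 FPKM in siPHF20L1 libraries. The siPHF20L1 libraries were all higher, by a narrow margin, and the mean moved from 34.9 ± 0.885 to 38.7 ± 0.801 FPKM, a log2 difference of 0.14 (SE 0.05, limma, adjusted p = 0.0411). Within the libraries numbered 1 the log2 difference was 0.11, and within those numbered 2 and 3 it was 0.16. The call held in 6 of 16 alternatives. It was lost with median-ratio size factors (limma, adjusted p = 0.206) and quantile normalization (0.157), and without siControl replicate 2 (0.122), siControl replicate 3 (0.129), siPHF20L1 replicate 1 (0.0678), siPHF20L1 replicate 2 (0.0773) or siPHF20L1 replicate 3 (0.137), and its adjusted p ranged from 0.00323 to 0.253. It is not stated whether the authors' counting used strand, and exons of XPO5 and DGCR8 overlap coding genes of the other strand in GENCODE 29. POLR1C, the partner of XPO5, had a log2 difference of -0.22 (limma, adjusted p = 0.0242), and TRMT2A, the partner of DGCR8, had 0.34 (limma, adjusted p = 0.0754, and 0.000147 with the replicate number as a block). Each thus lay on the other side of 0 from the gene it overlaps, and the share of reads that such pairs exchange was not tested. Exons of AGO1, AGO3, TARBP2 and DGCR8 also overlap antisense or long noncoding genes of the other strand, which were not analysed here.

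DICER1 (Entrez gene 23405, chromosome 14), the RNase that turns precursors into duplexes, showed the largest difference of the 10 genes. It was at 25.78, 19.12 and 20.01 FPKM in siControl libraries and at 6.06, 4.63 and 5.47 FPKM in siPHF20L1 libraries. The highest siPHF20L1 library was far below the lowest siControl library. The mean fell from 21.6 ± 3.62 to 5.39 ± 0.719 FPKM (SD, n = 3), a 4.02-fold fall (log2 difference -1.82, 95% interval -2.10 to -1.54, limma, adjusted p = 6.86e-06). Only 21 of the 11560 genes tested fell by more on this scale. The difference was -1.92 within the libraries numbered 1 and -1.77 within those numbered 2 and 3. The antisense gene DICER1-AS1 shares exon sequence with DICER1 on the other strand, and its values were not analysed here.

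TARBP2 (Entrez gene 6895, chromosome 12), the double-stranded RNA-binding partner of DICER1, did not follow it. It was at 17.57, 19.83 and 22.79 FPKM in siControl and at 17.91, 23.52 and 23.45 FPKM in siPHF20L1 libraries, so that the groups overlapped. The log2 difference was 0.10 with a 95% interval of -0.18 to 0.38 (limma, adjusted p = 0.506), and no alternative gave a call (adjusted p of limma 0.0766 to 0.931). Within the libraries numbered 1 it was 0.03, and within those numbered 2 and 3 it was 0.14. DICER1 and TARBP2 had been near each other in siControl libraries, with ratios of 0.878 to 1.47, and the ratio was 0.197 to 0.338 in siPHF20L1 libraries. The ratio of DROSHA to DICER1 went from 0.530 to 0.635 up to 4.56 to 5.32, so that the order of the nuclear and the cytoplasmic RNase was inverted in every library of the knockdown group.

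Among what the files and references allow to be asked of DICER1 beyond its level is its 3′ UTR. The 6-letter words CAAGAT and TAAGGA were picked in earlier work by how they go with the log2 differences of these same libraries, so their presence here is no independent evidence. The longest annotated 3′ UTR of DICER1 (GENCODE 29, 4270 nt) holds CAAGAT at 1 place and TAAGGA at 3. These sites are shown with 8 bases on each side, the word in capitals (GRCh38, minus strand).
DICER1 chr14:95086997-95087018: cctttacaCAAGATtgaagcca
DICER1 chr14:95088729-95088750: ctgctttcTAAGGAaccctgag
DICER1 chr14:95087924-95087945: ctgtcaatTAAGGAaaaaaaaa
DICER1 chr14:95086358-95086379: ctgtttttTAAGGAacatgatg

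Read as letters of the transcript strand only, either word occurs in 6 of the 10 genes, against 48.9% of all tested genes with a 3′ UTR. Length moves with this share, since 82.0% of those with a 3′ UTR of at least 2000 nt hold a word. AGO3 (16755 nt) has 14 CAAGAT and 6 TAAGGA, AGO1 (10921 nt) has 5 and 2, AGO4 has 1 CAAGAT, and all 3 were lower. AGO2 (11888 nt) has 3 of each and TARBP2 has 1 CAAGAT, and neither passed the test. TNRC6A and DGCR8 have no match and were lower, and DROSHA and XPO5 have none and were higher. Because of how the words were picked, this tally is a description, and whether any of these sites is bound was not tested.

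AGO2 (Entrez gene 27161) was the most abundant Argonaute and was close in both groups. Its values were 36.01, 30.22 and 34.81 FPKM in siControl and 30.64, 31.10 and 32.02 FPKM in siPHF20L1 libraries. The siPHF20L1 values all lay within the range of the siControl values, and the log2 difference of -0.10 (95% interval -0.27 to 0.06) did not pass (limma, adjusted p = 0.258). It did not pass in any of the 16 alternatives (adjusted p of limma 0.0595 to 0.596). The interval leaves room for a small fall, and the difference was -0.23 within the libraries numbered 1 and -0.04 within those numbered 2 and 3.

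The other Argonautes, which bind microRNAs but are not known as efficient slicers, were all lower. AGO1 (Entrez gene 26523) was at 9.75, 8.19 and 8.54 FPKM in siControl and at 7.14, 6.21 and 6.14 FPKM in siPHF20L1 libraries (8.83 ± 0.819 to 6.50 ± 0.558 FPKM, a log2 difference of -0.39 with SE 0.09, limma, adjusted p = 0.00478). AGO3 (Entrez gene 192669) was at 6.43, 4.30 and 5.11 FPKM against 3.37, 3.06 and 3.07 FPKM (5.28 ± 1.08 to 3.17 ± 0.176 FPKM, a log2 difference of -0.58 with SE 0.12, limma, adjusted p = 0.00306). AGO4 (Entrez gene 192670) was at 2.94, 2.79 and 2.75 FPKM against 2.15, 2.01 and 2.03 FPKM (means of 2.83 and 2.06 FPKM, a log2 difference of -0.32 with SE 0.07, limma, adjusted p = 0.00416). None of the 3 overlapped between the groups, and each kept its call in every alternative that tested it, 16 for AGO1 and 15 for AGO3 and AGO4. The difference of AGO3 was -0.77 within the libraries numbered 1 and -0.49 within those numbered 2 and 3, while AGO1 (-0.40 and -0.38) and AGO4 (-0.32 and -0.32) were close in both. As ratios of means, AGO3 fell 1.67-fold, AGO4 1.37-fold and AGO1 1.36-fold.

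The summed Argonaute FPKM was 45.5 to 55.1 in siControl and 42.4 to 43.3 in siPHF20L1 libraries. AGO2 made up 65.3% to 68.0% of that sum in siControl libraries and 70.8% to 74.0% in siPHF20L1 libraries. The share of AGO1 went from 16.7% to 18.0% down to 14.2% to 16.5%, that of AGO3 from 9.45% to 11.7% down to 7.10% to 7.78%, and that of AGO4 from 5.33% to 6.13% down to 4.69% to 4.97%. None of these shares overlapped between the groups. The shares of a library make up a whole, so they are not separate results. Falls of the others raise the share of AGO2, whose own FPKM did not rise. They are shares of transcript, and protein was not measured.

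**Figure D2:**
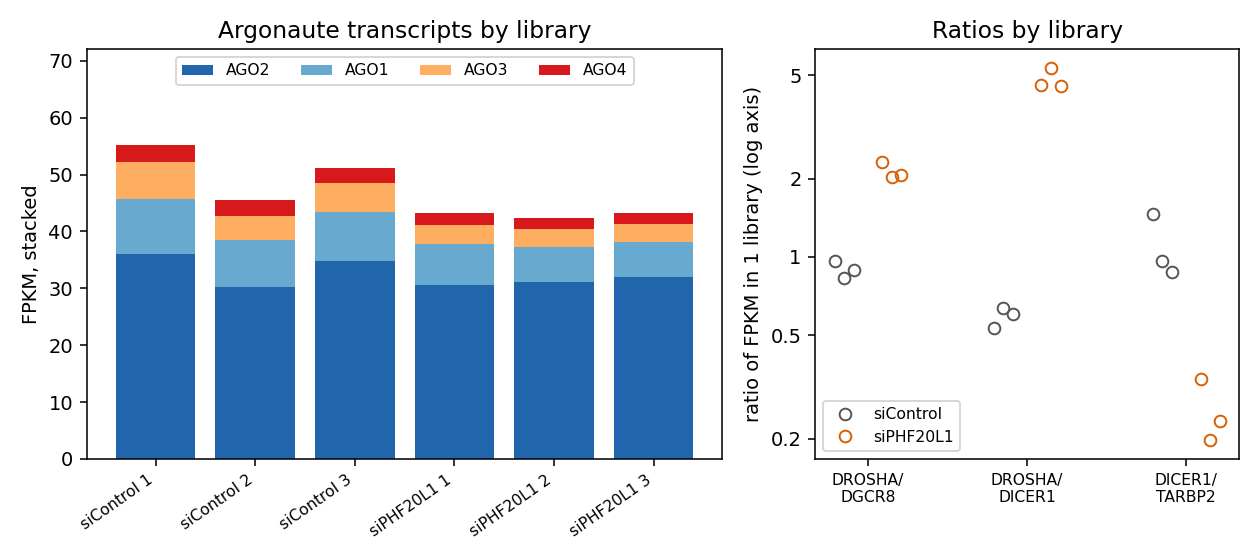
Left, FPKM of the 4 Argonautes stacked for each library; right, ratios of FPKM within each library (log axis), 1 point per library. AGO2 makes up at most 68.0% of the sum in siControl and at least 70.8% in siPHF20L1 libraries, and the DROSHA to DICER1 ratio goes from under 0.64 to over 4.5.

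AGO4, AGO1 and AGO3 lie next to each other in that order on chromosome 1, all on the plus strand, while AGO2 lies on another chromosome. Because these 3 neighbours were lower together, the sequence around their RefSeq starts is shown (GRCh38.p14, plus strand, 60 bases before the start and the first 50 after it), with each CG dinucleotide, the site of DNA methylation, in capitals.
AGO4 chr1:35807956-35808065: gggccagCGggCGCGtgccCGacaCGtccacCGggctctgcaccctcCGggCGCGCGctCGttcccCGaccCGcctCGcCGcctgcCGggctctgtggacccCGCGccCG
AGO1 chr1:35883149-35883258: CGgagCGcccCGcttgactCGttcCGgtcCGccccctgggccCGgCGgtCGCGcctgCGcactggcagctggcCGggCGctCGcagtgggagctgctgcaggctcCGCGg
AGO3 chr1:35931045-35931154: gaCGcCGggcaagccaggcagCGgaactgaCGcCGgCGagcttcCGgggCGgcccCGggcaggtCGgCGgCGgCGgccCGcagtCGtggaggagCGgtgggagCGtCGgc

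These windows hold 19, 16 and 18 CG for AGO4, AGO1 and AGO3. Over the full 300 bases around the start the counts were 29, 30 and 50, against a median of 25 over the 13956 promoters of tested genes. Fewer CG than in the AGO3 promoter were found in 98.0% of those promoters, fewer than in the AGO1 promoter in 62.8% and fewer than in the AGO4 promoter in 59.8%. DROSHA, which rose, had 28, and DGCR8, which was lower by little, had 57. DICER1, with several listed starts, had 0 to 37, and TARBP2, also with several, had 19 to 31. XPO5 had 41 and TNRC6A 31. The promoter of AGO2 was not analysed here, so it is not part of this comparison. Methylation was not measured in these libraries.

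TNRC6A (Entrez gene 27327, chromosome 16), the GW182 scaffold, was at 35.34, 31.90 and 31.47 FPKM in siControl and at 23.70, 20.50 and 21.72 FPKM in siPHF20L1 libraries. Every siPHF20L1 library was below every siControl library. The mean fell from 32.9 ± 2.12 to 21.97 ± 1.61 FPKM (SD, n = 3), a fall of 33.2% (log2 difference -0.56, SE 0.07, limma, adjusted p = 0.00025), with -0.56 within both sets of library numbers. Its paralog TNRC6B was lower too, with means of 5.50 ± 0.770 and 3.69 ± 0.429 FPKM (a log2 difference of -0.47 in limma, adjusted p = 0.00483). The third paralog, TNRC6C, was at 2.67 and 2.79 FPKM and did not pass. TNRC6A made up 79.6% to 80.6% of the summed GW182 transcripts in siControl libraries and 76.7% to 77.5% in siPHF20L1 libraries.

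**Figure D3:**
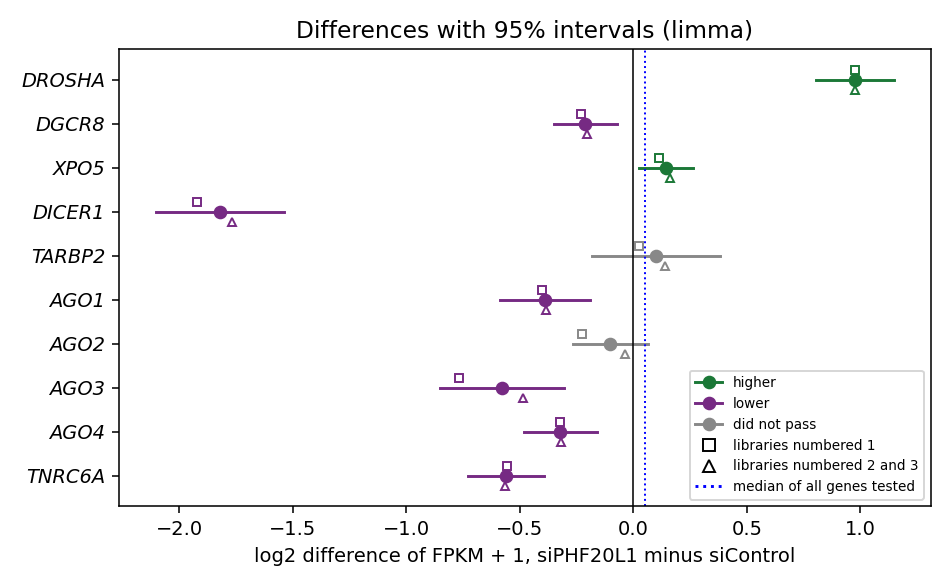
Log2 differences of FPKM + 1 (siPHF20L1 minus siControl) of the 10 genes with 95% intervals from limma, green for higher, purple for lower and grey for not passed; open squares give the libraries numbered 1, open triangles those numbered 2 and 3, and the dotted line the median of all genes tested (0.05). DROSHA lies at 0.98 and DICER1 at -1.82, and the intervals of TARBP2 and AGO2 include 0.

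The order of levels changed with these shifts. In siControl libraries XPO5, AGO2 and TNRC6A led with overlapping ranges, followed by DICER1 and TARBP2, which overlapped, then by DGCR8 and DROSHA, which overlapped too, and then by AGO1, AGO3 and AGO4, each apart from the next. In siPHF20L1 libraries XPO5, AGO2 and DROSHA were first and each apart from the next, TNRC6A and TARBP2 overlapped, and DGCR8 followed. DICER1 went from the fourth place to the eighth, below AGO1 (lowest value 6.14 FPKM, against 6.06 FPKM for the highest of DICER1), and DROSHA from the seventh to the third.

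The steps around these genes were described with lists of 60 further pathway genes, of which 57 were tested. Of these, 14 were higher, 20 lower and 23 did not pass, with a median log2 difference of -0.06. The share of lower genes in all tested was 24.7% and that of higher genes 34%, as above. With the replicate number as a block, 4946 of all 11560 genes tested were higher and 3846 lower, against which the blocked counts below are to be read. The called genes that moved most in each list are given next.

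Of 5 further nuclear genes, 1 was higher and 3 lower. The helicase DDX17, a Microprocessor cofactor, rose from 43.4 ± 2.38 to 57.8 ± 4.56 FPKM (limma, adjusted p = 0.00134), while SRRT (ARS2), which links capped transcripts to processing, fell from 82.7 ± 3.68 to 56.3 ± 1.42 FPKM (limma, adjusted p = 5.96e-05). Beside DICER1, its other partner PRKRA (PACT) fell from 21.7 ± 0.579 to 16.95 ± 0.800 FPKM (limma, adjusted p = 0.00139), and ADAR and KHSRP did not pass. KHSRP, with a log2 difference of 0.08, passed in the blocked fit (adjusted p of limma 0.0408, against 0.252 without the block). The let-7 antagonists LIN28A and LIN28B were under the filter, LIN28A at 0.480 and 0.543 FPKM and LIN28B at no more than 0.01 FPKM.

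Of 6 chaperone genes of Argonaute loading, 4 were higher and 1 lower. The higher calls held in 7, 8, 11 and 15 of 16 alternatives, so most of them were easily lost. DNAJA2 had the largest rise, from 23.3 ± 1.58 to 28.0 ± 3.54 FPKM (limma, adjusted p = 0.0417), a call lost in 9 alternatives, among them those without siControl replicate 2 (0.116), siControl replicate 3 (0.123) or siPHF20L1 replicate 1 (0.0872). The HSP90 cochaperone gene PTGES3 (p23) fell from 129.9 ± 4.51 to 98.7 ± 0.552 FPKM (limma, adjusted p = 0.000251). Of the 10 tested Argonaute partners and modifiers, 1 was higher and 5 lower (1 and 6 with the replicate block). In the phosphatase that resets Argonaute after target binding, the subunits moved apart: ANKRD52 rose from 35.7 ± 2.23 to 65.3 ± 4.49 FPKM (limma, adjusted p = 1.85e-05) and the catalytic PPP6C fell from 29.4 ± 3.06 to 20.6 ± 1.60 FPKM (limma, adjusted p = 0.0013). LIMD1, an adaptor of the silencing complex, fell 2.17-fold, from 23.7 ± 0.946 to 10.9 ± 0.376 FPKM (limma, adjusted p = 3.09e-06). TRIM71 did not exceed 0.03 FPKM.

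Downstream of GW182, 2 of 12 genes for subunits of deadenylase complexes, catalytic or not, were higher and 4 lower (3 and 5 with the replicate block). Both subunits of the PAN complex rose, PAN2 from 0.990 ± 0.210 to 2.26 ± 0.176 FPKM (limma, adjusted p = 0.000309) and PAN3 from 6.31 ± 0.656 to 8.34 ± 0.653 FPKM (limma, adjusted p = 0.00815, and 0.0577 with the libraries numbered 2 and 3 averaged). In the CCR4-NOT complex CNOT9, the subunit that docks GW182, fell 3.04-fold, from 35.2 ± 2.13 to 11.6 ± 0.708 FPKM (limma, adjusted p = 1.09e-06), and CNOT11 fell from 45.1 ± 1.31 to 34.7 ± 0.0458 FPKM (limma, adjusted p = 0.000362).

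Of 11 genes of decapping and 5′ decay, 5 were higher and 2 lower (5 and 5 with the replicate block). LSM1, of the ring that binds deadenylated ends, rose 2.36-fold, from 8.96 ± 0.778 to 21.2 ± 0.987 FPKM (limma, adjusted p = 5.8e-06). The paralogs of the decapping activator moved apart, DCP1B up from 2.09 ± 0.188 to 3.84 ± 0.197 FPKM (limma, adjusted p = 0.000161) and DCP1A down from 14.8 ± 1.44 to 9.01 ± 0.845 FPKM (limma, adjusted p = 0.000336). EDC4 fell from 33.2 ± 2.65 to 26.8 ± 3.41 FPKM (limma, adjusted p = 0.0272), a call lost in 4 alternatives: without siControl replicate 2 (0.0816), without siControl replicate 3 (0.0903), with the libraries numbered 2 and 3 averaged (0.0810) and with no filter on low values (0.0529). Of 8 genes of precursor tailing and microRNA turnover, 1 was higher and 3 lower (3 and 4 with the replicate block). DIS3L2, which degrades uridylated precursors, rose from 5.88 ± 0.315 to 9.31 ± 0.433 FPKM (limma, adjusted p = 0.000163), and ZSWIM8, of the ubiquitin ligase in target-directed microRNA decay, fell from 30.6 ± 0.950 to 16.8 ± 0.722 FPKM (limma, adjusted p = 8.78e-06).

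**Figure D4:**
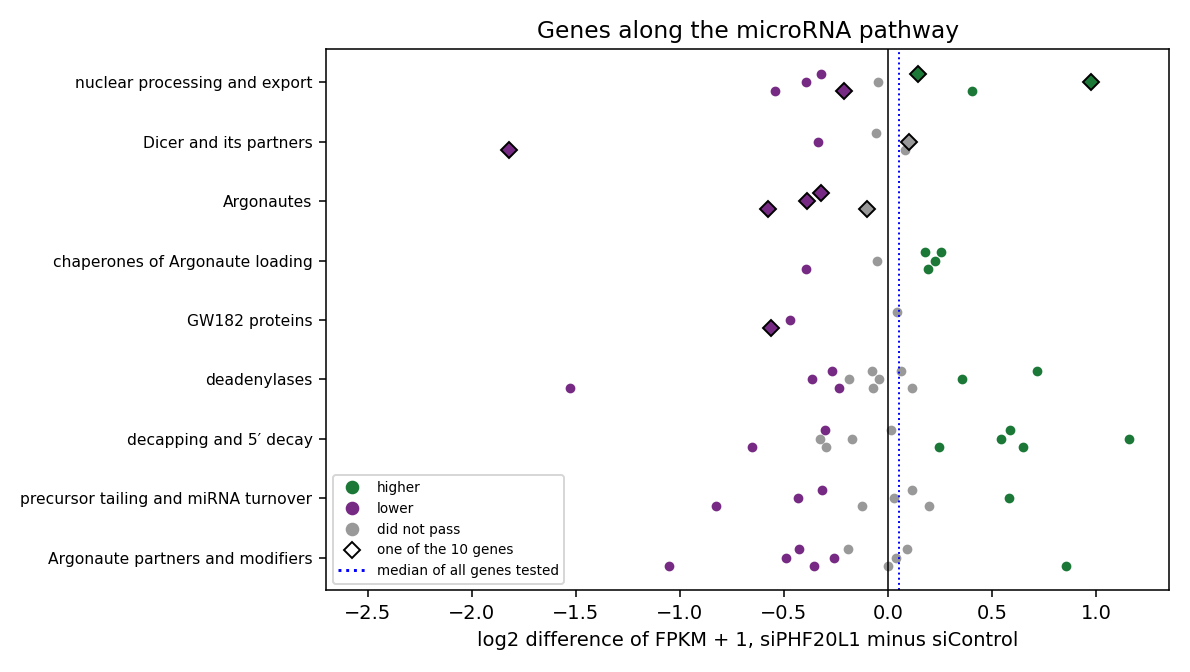
Log2 differences of FPKM + 1 (siPHF20L1 minus siControl) of the tested genes of each list, 1 point per gene; green is higher, purple lower and grey not passed, diamonds are the 10 genes described here, and the dotted line is the median of all genes tested (0.05). DICER1 (-1.82) and CNOT9 (-1.53) lie lowest, and LSM1 (1.16) and DROSHA (0.98) highest.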

How the data were processed

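Poly-A RNA was made into libraries with a stranded kit, per the labels' protocols. GRCh37, HTSeq 0.6.0, TopHat2 2.1.1 and Bowtie 0.12.2 are listed in the submitters' processing notes, without their roles. The authors deposited FPKM, 1 value per Entrez gene and library to 2 decimals, per the file headers; their annotation and the use of strand are not given in the sources used here.

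The values are not counts, so limma 3.58.1 (R 4.3.3), planned for that case, was fitted to log2(FPKM + 1) with an intensity trend and no block, over genes with FPKM of at least 1 in at least 3 libraries. All 10 genes passed this filter. A pseudocount understates differences of low genes. P-values are two-sided and Benjamini-Hochberg adjusted over all 11560 genes tested. On simulated data at 11339 genes, 94% of changes of 1.5-fold and 98% of those of 2-fold were recovered, and 4% of the calls were false. The simulation drew independent libraries with a fixed spread, 100 changed genes per fold and no shift of the libraries numbered 1. Since these libraries differ in each of these points, it checks the fit only and does not give their recovery or false calls. The named genes are the 10 genes and, per list, the called genes with the largest rise and fall (2 each for lists of over 10 genes); TNRC6C, ADAR, KHSRP and the overlapping TRMT2A and POLR1C were added after their values were seen. Genes and lists were chosen with earlier results of these data known.

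Depth was estimated from steps in FPKM times length for short single-transcript genes, using GENCODE 29 lengths, and a depth that makes the step a multiple was not tested. The libraries numbered 2 and 3 were close (mean chi-square per gene of 2.05 and 1.80, against 11.3 to 14.4 for pairs with number 1) and were kept as labelled. Deviations from group means correlated at 0.734, 0.436 and 0.419 across genes between libraries of the same number, and siControl 3 with siPHF20L1 2 at 0.49. The labels state no pairing, so the fit has no block, and values with the replicate number as a block are given where they change a call or a count.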

Additional observations from a re-analysis of the deposited data

How the results depend on the processing

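Over the alternatives of pseudocount, filter, scaling, block, trend and libraries, none of the 10 genes changed direction. In 145 of 158 combinations of gene and alternative the call was the same, and it was lost in 13, all of them DGCR8 or XPO5. The number of higher genes among the 10 was 1 in place of 2 with median-ratio size factors, quantile normalization, equal sums, the libraries numbered 2 and 3 averaged, and no intensity trend, and 1 to 2 when leaving out 1 library; XPO5 was the gene lost. The number of lower genes was 4 with FPKM of at least 5, where AGO3 and AGO4 were not tested, and 5 to 6 when leaving out 1 library. With the libraries numbered 2 and 3 averaged, 8 of the 57 further pathway genes were higher in place of 14, and leaving out 1 library gave 10 to 14. Over all genes tested, that averaging gave 2949 higher genes in place of 3926. The balance of higher and lower genes over all genes depended on scaling. Median-ratio size factors gave 3429 higher and 3420 lower, quantile normalization 3354 and 3495, and equal sums 3983 and 2618. With the replicate number as a block, the same 6 genes of the 10 were lower and the same 2 higher (limma, adjusted p of DGCR8 0.00131 and of XPO5 0.00323), AGO2 (0.0791) and TARBP2 (0.0777) still did not pass, and 18 of the further pathway genes were higher and 26 lower. Over all 11560 genes tested, the block gave 4946 higher and 3846 lower, against 3926 and 2851 without it. Of the other genes named, KHSRP and TRMT2A passed with the block and not without it, and the block changed no other named gene's call. No ratio changed direction without the libraries numbered 1. The values of the other named genes lost their call in 14 of 366 combinations. With 3 libraries a group, log2 differences within -0.27 to 0.06 for AGO2 and within -0.18 to 0.38 for TARBP2 were not resolved.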

Other observations

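Genes whose transcripts carry microRNA hairpins can be read in these libraries as host transcripts only. Of 26 such genes listed, 18 were found in the files and 17 tested, of which 6 were higher, 4 lower and 7 did not pass (6 higher and 8 lower with the replicate number as a block), with a median log2 difference of -0.05. The tally does not cover the listed hosts MIR17HG, MIR22HG, MIR31HG, MIR100HG, MIR155HG, MIR210HG, MIR503HG and H19, which were not analysed here. Among all genes tested, 34% were higher and 24.7% lower, so the counts without the block were near the shares of all genes. With the block, 4946 of all 11560 genes were higher and 3846 lower. WWP2, the host of miR-140, rose from 7.06 ± 0.605 to 15.8 ± 1.18 FPKM (log2 difference 1.06, limma, adjusted p = 1.36e-05). SKA2, the host of miR-301a, rose from 19.9 ± 1.60 to 34.0 ± 5.23 FPKM (log2 difference 0.74, limma, adjusted p = 0.000437). SMC4, the host of miR-15b, fell from 42.2 ± 6.11 to 19.3 ± 2.25 FPKM (log2 difference -1.09, limma, adjusted p = 6.37e-05), and PANK2, the host of a miR-103a copy, fell from 13.5 ± 0.690 to 10.8 ± 0.352 FPKM (log2 difference -0.30, limma, adjusted p = 0.00372). MEST, the host of miR-335, did not exceed 0.05 FPKM.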
